A study of Mus musculus with 2 samples.

Results

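Ciliated mimetic cells are medullary thymic epithelial cells (mTEC) that switch on the genes of multiciliated cells, the airway and oviduct cells that beat fluid along a surface. They were picked out of a droplet capture of thymic mimetic cells, chosen by the measured counts of 10 ciliary genes: Foxj1, Trp73, Tmem212, Ccdc153, Dynlrb2, Dnah5, Dnah12, Rsph1, Pifo and Fam183b. A barcode (1 droplet, taken as 1 cell) passed if it held 500 or more detected genes and less than 15% of its molecules were mitochondrial, and a passing barcode with a molecule of at least 4 of these 10 genes was a member. The rule found 118 members among 2527 passing barcodes, out of 3447 deposited. The thymi came from female mice aged 6 weeks of the inbred strains NOD, BALB/c and C57BL/6 (B6), with 2 mice of each strain and no further allele or treatment given in the labels. Cells were depleted of CD45-positive leukocytes and sorted as the mTEClo fraction lacking podoplanin (Pdpn) and CD104, so every strain was seen through the same gate. All 6 mice carried their own hashtag antibody and shared 1 capture, and the mouse was the replicate. A member was given to a mouse where 1 hashtag held at least 80% of at least 100 hashtag molecules. In the hashtag list the NOD mice share 1 replicate number, and they are called 1 and 2 here. That placed 104 members: 8 in NOD 1, 3 in NOD 2, 39 in BALB/c 1, 30 in BALB/c 2 and 12 in each B6 mouse. The other 14 had no mouse and entered no comparison of strains. In all 14 the top hashtag held under 80% of the hashtag molecules. Their median was 44167 gene molecules, against 22695.5 in members with a mouse. They stay in the values given over all members.

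A multiciliated cell is built in order. The coactivator Mcidas and the cyclin-like protein Ccno start the amplification of centrioles, which are assembled in large numbers on deuterosomes, structures that need Deup1. The factors Foxj1, Rfx2 and Rfx3 then turn on the genes of the axoneme, the moving core of the cilium, in which outer and inner dynein arms slide the doublet microtubules, and radial spokes and a central pair set the beat. In the thymus, mimetic cells display tissue proteins to developing T cells, and ciliated ones are known as one of several mimetic types beside tuft, microfold and neuroendocrine ones.

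Upstream sequence was looked at because the ciliary genes are switched on together. Of the 81 genes of the rule and of 4 axonemal lists (outer arm, inner arm, radial spoke and central pair, doublet microtubule), 66 had an entry in the RefSeq promoter table (GRCm38.p6). The 250 bases before the gene's start were searched on both strands, with X-box letters standing for the sequence bound by Rfx factors and forkhead letters for that bound by Foxj1 and its relatives. A window that adds the 50 bases after the start was searched too. A total of 8 spellings was searched, and the one printed here was chosen after the matches were seen. A loose X-box with both arms and a free spacer lay before 5 of the 66 genes (7.58%) and before 0.784% of the 27025 genes of the table. In the longer window of 300 bases it lay in 8 of the 66 genes (12.1%, against 0.936% of the table). Its 3 stricter forms, nested in it, lay before 2, 1 and 0 of the 66 genes (0.444%, 0.292% and 0.0740% of the table). The short arm GTTGCC, which overlaps those forms, lay before 25 of the 66 genes (37.9%, against 11.8% of the table), and the arm with its spacer before 1 (0.529% of the table). In other sets searched, the short arm lay before 4 of 10 centriole amplification, 5 of 19 intraflagellar transport, 2 of 6 tuft and 1 of 8 keratinocyte genes. The loose X-box lay before 0 genes in each of these sets. The forkhead spellings GTAAACA and TGTTTGT lay before 3 and 2 of the 66 genes (3.54% and 6.73% of the table). The 5 matches are shown on the strand of the gene with the matched letters in capitals. They lie on chromosomes 3 (Pifo), 8 (Hydin), 1 (Spag16 and Cfap45) and 9 (Ccdc151). They begin 20 bases before the gene's start in Pifo, 21 in Hydin, 103 in Spag16, 19 in Cfap45 and 34 in Ccdc151.
Pifo (chr3:106001498-106001532, minus strand): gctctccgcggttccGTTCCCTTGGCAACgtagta
Hydin (chr8:110266941-110266976, plus strand): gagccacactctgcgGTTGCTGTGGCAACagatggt
Spag16 (chr1:69826852-69826895, plus strand): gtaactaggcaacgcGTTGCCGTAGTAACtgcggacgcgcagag
Cfap45 (chr1:172521096-172521129, plus strand): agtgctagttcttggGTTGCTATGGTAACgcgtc
Ccdc151 (chr9:22002640-22002683, minus strand): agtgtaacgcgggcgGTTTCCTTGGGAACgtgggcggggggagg
A match is a description of the letters and not evidence of binding.

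The rule genes were detected together, and the cells were epithelial. All 118 members had a molecule of Epcam, Krt8 or Krt18, and 8 had one of Ptprc (CD45). Because these genes chose the members, the values are a description. Levels are counts of molecules (UMIs) per 1000000 of the summed cells (CPM), with no correction for gene length. Foxj1, the master factor of motile cilia (chromosome 11, 116330704 to 116335399, minus strand, mm10), had 788 and 911 CPM in NOD, 599 and 484 CPM in BALB/c, against 373 and 254 CPM in B6. It was detected in 94.1% of members and 8.49% of other epithelial barcodes, which had a median of 14447 UMIs. Those 1731 barcodes passed the filters, had a molecule of Epcam, Krt8 or Krt18 and none of Ptprc, and were not members. Tmem212, a membrane protein gene of multiciliated cells, had 1112 and 1177 CPM in NOD, 760 and 873 CPM in BALB/c, against 657 and 322 CPM in B6, and was seen in 83.9% of members and 0.635% of other epithelial barcodes. Dynlrb2, a dynein light chain gene, had 952 and 655 CPM in NOD, 439 and 502 CPM in BALB/c, against 1576 and 684 CPM in B6. The heavy chain genes Dnah5 (outer arm) and Dnah12 (inner arm) were seen in 82.2% and 87.3% of members, against 8.49% and 1.04% of other epithelial barcodes. Trp73, a p53-family factor gene of multiciliated cells, was the rule gene seen in fewest members, 58.5%, and in 2.72% of other epithelial barcodes. Rsph1, a radial spoke gene, was the most widely seen outside, in 15.7% of other epithelial barcodes.

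The number of rule genes detected split the members into a large and a small set. Just outside the threshold, 39 barcodes had 3 rule genes, and just inside it 9 had 4. Then 5 barcodes had 5, 4 had 6, 6 had 7, 12 had 8, 35 had 9 and 47 had all 10. Median rule-gene UMIs were 7 at 3 genes, 15 at 4, 112 at 9 and 237 at 10 genes. The 100 members with at least 7 rule genes held 5996 CPM of the rule genes and the 18 members with 4 to 6 held 977 CPM. None of the 11 NOD members was among the 18, against 4 of 69 BALB/c members and 9 of 24 B6 members, 8 of them in B6 mouse 2. Of these 18 members, 8 had at least 100 UMIs of the neuroendocrine list (6 in B6, 2 with no mouse), 3 of the tuft list and 1 of the enterocyte-hepatocyte list. Among the 100 members, 4 reached that level, all for tuft. Strain counts and shares are therefore also given for members with at least 7 rule genes.

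**Figure D1:**
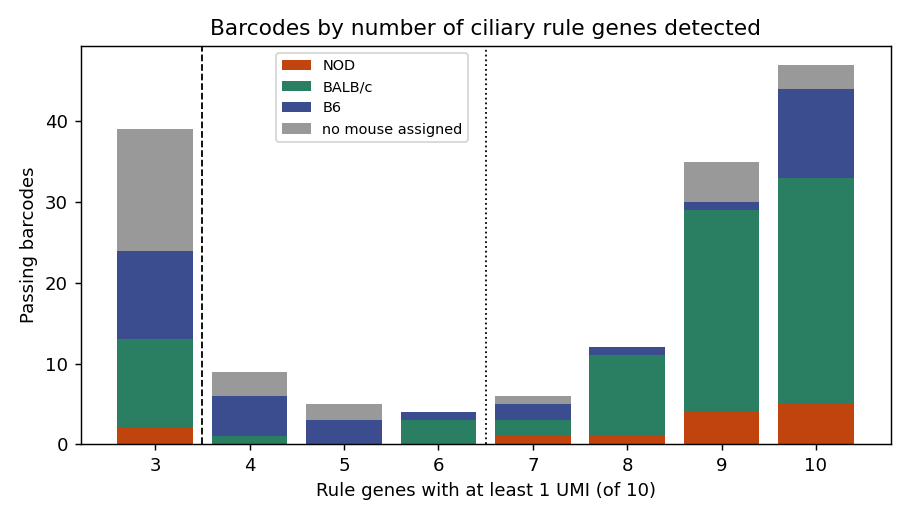
Passing barcodes (y axis) by how many of the 10 rule genes had at least 1 UMI (x axis, 3 to 10), stacked by strain. The dashed line is the rule's threshold and the dotted line separates members with 4 to 6 from those with at least 7 rule genes; 47 barcodes had all 10 and 9 had 4.

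A separate 4 members, 2 in BALB/c and 2 in B6 with 1 per mouse, held 13.8% to 42.9% of their UMIs in Igkc, the constant region of the antibody kappa chain. The highest share among the other members was 0.142%. These 4 held between 56059 and 143271 UMIs and 99.2% of all Igkc UMIs of the members. No doublet caller was run, and mixed hashtags kept a barcode out of the strain comparisons.

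Shares of ciliated mimetic cells overlapped between strains. They were 6.67% and 2.46% of the passing barcodes of a mouse in NOD (mean 4.56% ± 2.98), 9.47% and 5.04% in BALB/c (7.25% ± 3.13) and 5.58% and 4.98% in B6 (5.28% ± 0.426; SD, n = 2 mice each). The widest 95% exact binomial interval was that of NOD 1, 2.92% to 12.7%. A two-sided exact permutation test over the 3 strains gave p = 0.733, where 90 arrangements cannot go below 0.0667. Pairs of strains gave exact p = 1 for NOD against B6 and 0.667 for the other comparisons, where 2 mice against 2 cannot go below 0.333. With at least 7 rule genes the means were 4.56% ± 2.98 in NOD, 6.81% ± 2.73 in BALB/c and 3.39% ± 2.44 in B6 (exact permutation p = 0.533 over the 3 strains, n = 2 mice each). The NOD mean was thus above that of B6 under this rule and below it under the rule of 4. Without BALB/c 1, BALB/c minus B6 was -0.238 points, and without NOD 2, NOD minus B6 was 1.39 points.

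**Figure D2:**
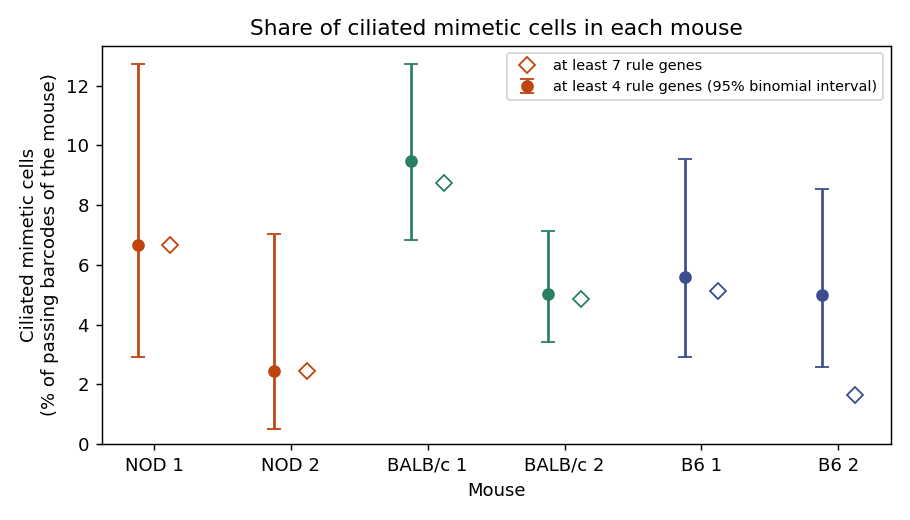
Share of ciliated mimetic cells among the passing barcodes of each mouse (y axis, percent) for the 6 mice (x axis). Filled circles use at least 4 rule genes, with 95% exact binomial intervals of counting error, and open diamonds use at least 7; B6 2 falls to 1.66% under the stricter rule, against 4.98%.

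The whole axoneme programme was on, beyond the 10 genes of the rule. The 71 genes of the 4 axonemal lists summed to 13214 ± 2448 CPM in members and 389 ± 110 CPM in other epithelial barcodes (SD, 6 mice each). These lists travel with the rule genes, so no test was made. Outer dynein arm genes had 1900 and 2240 CPM in NOD, 1445 and 1392 CPM in BALB/c, against 1537 and 1033 CPM in B6. In other epithelial barcodes they ranged between 59.0 and 132 CPM. Inner dynein arm and nexin genes ranged between 2270 and 3604 CPM over the 6 mice, against 34.0 to 73.2 CPM in other epithelial barcodes, and all 17 were higher in members in every mouse. All 21 radial spoke and central pair genes were likewise higher in every mouse, as were 21 of 22 doublet microtubule genes and 10 of 11 outer arm genes. By mean level over the mice the highest inner arm genes were the heavy chain genes Dnah6 and Dnah3. Dnah6 had 620 and 475 CPM in NOD, 472 and 437 CPM in BALB/c, against 247 and 222 CPM in B6. Dnah3 had 560 and 342 CPM in NOD, 161 and 215 CPM in BALB/c, against 279 and 156 CPM in B6. Of the central pair genes, Spag16 had 847 and 684 CPM in NOD, 343 and 410 CPM in BALB/c, against 594 and 643 CPM in B6. Per cell, axonemal genes took a median of 127 UMIs in 10000 (22.8 to 293) in the 100 members with at least 7 rule genes. The median was 28.9 (2.85 to 292) in the 18 with 4 to 6, and 3.17 in other epithelial barcodes.

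Genes shared with primary cilia and other cells stood out less. The 23 intraflagellar transport genes, whose products carry cargo along cilia, were 4.40 times as high in members as in other epithelial barcodes, against 51.9 times for the inner arm list and 48.1 times for the radial spoke list. Tubulins and tubulin modifiers were 5.42 times as high. Tppp3, a tubulin-binding protein gene, led that list, with 3212 and 3199 CPM in NOD, 1868 and 1575 CPM in BALB/c, against 828 and 425 CPM in B6. The factor gene Rfx3 was seen in 96.6% of members and 55.7% of other epithelial barcodes, and Rfx2 in 83.1% and 11.4%. Dynein assembly factors, cytoplasmic proteins that preassemble the arms, were 9.26 times as high.

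The 20 genes outside the rule with the highest ratio of members to other epithelial barcodes, among 5369 genes seen in enough members, were ciliary genes or genes without a list. For this ratio the level in other epithelial barcodes was set to at least that of 3 UMIs. Sntn, which encodes the ciliary tip protein sentan, led with 362 CPM against 0.0955 CPM and was seen in 83.9% of members and 0.173% of other epithelial barcodes. Fam216b was seen in 71.2% of members and in none of the 1731 other epithelial barcodes, which allows a share of barcodes with a UMI of up to 0.173% (counting error only). Spag17 (central pair), Cfap206 and Meig1 (doublet microtubule list), Zmynd10 (dynein assembly) and Deup1 (deuterosomes) were also among the 20. The unlisted ones were C230072F16Rik, Gm867, Fam166c, Syt10, Fam47e, 2610028H24Rik, BC051019, Zfp474, Clec3b, Gm19935, Cfap97d2 and Stoml3. Gm19935 ranged between 120 and 1434 CPM over the mice, and Clec3b between 2.44 and 250 CPM.

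**Figure D3:**
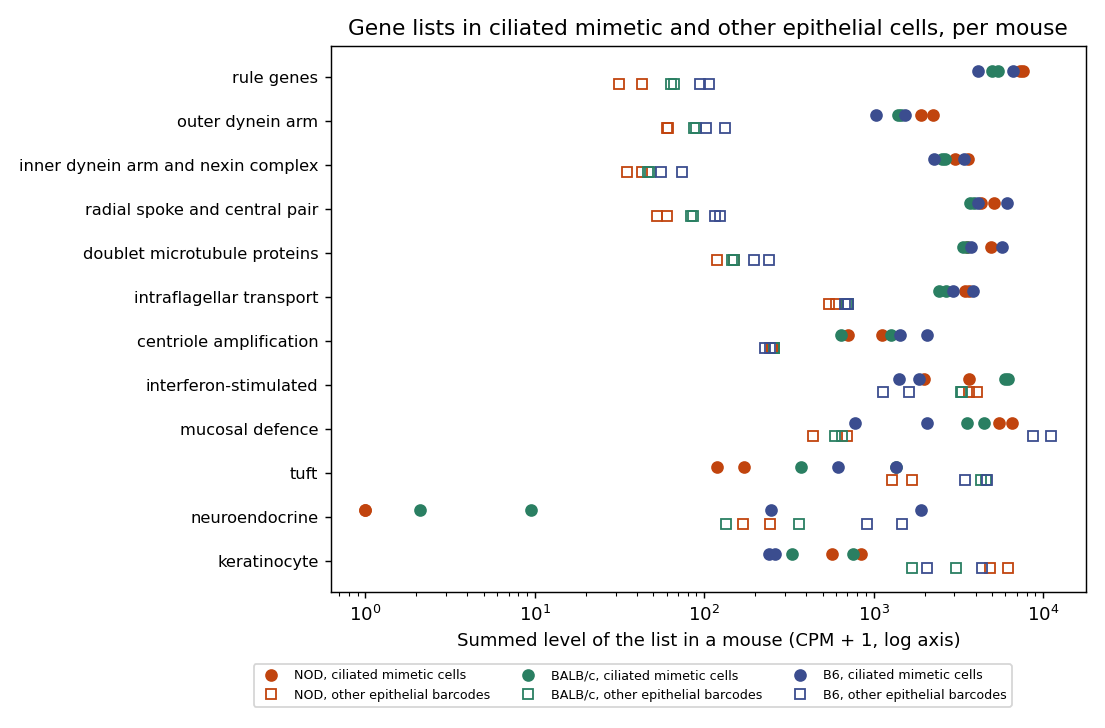
Summed level of 12 gene lists in each mouse (x axis, CPM + 1 on a log axis), as filled circles for ciliated mimetic cells and open squares for other epithelial barcodes, coloured by strain. The axonemal lists lie far above the other epithelial barcodes in every mouse, tuft and keratinocyte genes below them in every mouse, and neuroendocrine genes below them except in B6 2.

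Most members had a UMI of some centriole amplification gene, while a minority had several of those tied to deuterosomes. Of the 100 members with at least 7 rule genes, 58 had a UMI of Deup1, and 37 had none of Mcidas, Ccno, Deup1 and Cdc20b. In all, 18 had a UMI of at least 3 of Mcidas, Ccno, Deup1 and Cdc20b. None of the 1731 other epithelial barcodes did, at their lower depth (median 14447 UMIs). By strain these were 1 of 11 NOD members, 4 of 65 BALB/c members and 10 of 15 B6 members, the last split as 6 of 11 and 4 of 4 in the 2 mice; 3 of 9 members with no mouse also had them. This cut was chosen after the values were seen, so the split has no test. Depth moved with it: the 18 cells had a median of 51813.5 UMIs against 22200 in the other 82, and the strain medians were 30770 (NOD), 20722 (BALB/c) and 40192 (B6). After thinning to 10000 UMIs a cell, 0 of 9 NOD, 2 of 57 BALB/c and 3 of 12 B6 members had at least 3 of the 4 genes, and 0 of 9, 5 of 57 and 9 of 12 had at least 2. Thinning left out 2, 8 and 3 shallower members, and 0 of 1072 thinned other epithelial barcodes had at least 2. The 3 genes Ccno, Mcidas and Cdc20b lie next to each other on chromosome 13, all on the plus strand (112987802 to 112990777, 112993845 to 113000394 and 113035111 to 113091195, mm10). Cdc20b also hosts microRNAs of the miR-449 family, which are known from multiciliated cells and were not measured here. The 5p mature sequences lying within Cdc20b are given because they share 1 seed (bases 2 to 8, in capitals; RefSeq, GRCm38.p6).
mmu-miR-449a-5p: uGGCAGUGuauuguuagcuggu
mmu-miR-449c-5p: aGGCAGUGcauugcuagcugg

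The 18 cells differed from the other 82 in more than these genes, in levels given as a description. Strain is mixed into it, since 10 of the 18 were B6 members and 61 of the 82 were BALB/c members. The 2 B6 members rich in Igkc (143271 and 73565 UMIs) were among the 18, and the 2 BALB/c ones were among the 82. B or plasma genes had 4864 CPM in the 18 cells against 2118 CPM in the 82. The part of the cells rich in Igkc in the levels below was not tested. Deup1 had 744 CPM against 41.5 CPM, Cdc20b 339 CPM against none, and Plk4, a kinase that starts centriole formation, 197 CPM against 5.65 CPM. The cell cycle list had 803 CPM against 58.9 CPM. Radial spoke and central pair genes had 7114 CPM against 3670 CPM and doublet microtubule genes 6861 CPM against 3322 CPM. Of the lists outside the cilium, mucosal defence had 351 CPM against 4600 CPM, interferon-stimulated genes 1377 CPM against 5682 CPM, MHC class I genes 7460 CPM against 14900 CPM and thymic epithelium genes 3182 CPM against 8852 CPM. The antiprotease gene Wfdc2 was seen in 7 of 18 and 78 of 82 cells (78.6 CPM against 2139 CPM), and Lcn2, an iron-binding defence protein gene, in 1 of 18 and 64 of 82. Within BALB/c, Wfdc2 had 352 CPM in the 4 cells and 2022 CPM in the other 61, and within B6 it had 32.9 CPM in the 10 cells and 1437 CPM in the other 5. Lcn2 had 216 and 1825 CPM within BALB/c in the same order, and 0 and 61.2 CPM within B6. Sntn and Tmem212 were lower as well (229 against 497 CPM, and 420 against 887 CPM). Members with at least 7 rule genes but fewer than 3 of the 4 centriole genes are called centriole-poor members below, a name for the threshold and not for a stage; B6 2 had none, and B6 1 had 5.

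**Figure D4:**
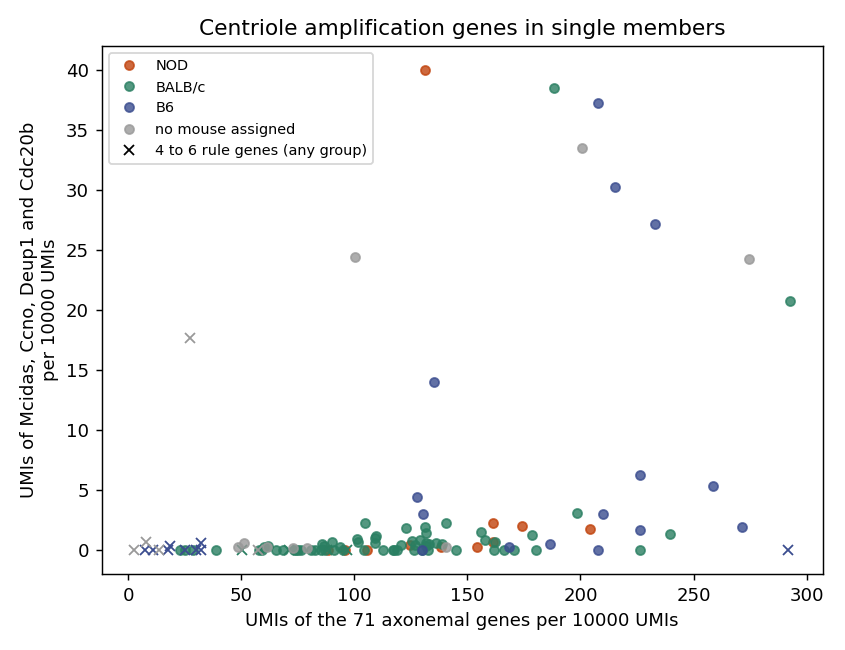
Each point is 1 member: UMIs of 71 axonemal genes per 10000 UMIs (x axis) against UMIs of Mcidas, Ccno, Deup1 and Cdc20b per 10000 UMIs (y axis), coloured by strain, with crosses for members with 4 to 6 rule genes. Most members lie near 0 on the y axis over the whole range of axonemal level. The high points come from every strain and from members without a mouse, and the highest are in NOD 1 (40.0) and BALB/c 1 (38.5).

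NOD and BALB/c members differed in few genes. Counts summed per mouse were fitted with edgeR's quasi-likelihood test (3 strains in 1 fit, 8839 genes tested, Benjamini-Hochberg adjusted p under 0.05), and 8 genes were higher (0.0905% of those tested) and 10 lower (0.113%) in NOD. None of the 69 axonemal genes tested (of 71) and none of the 11 centriole amplification genes was called, with a median of -0.34 for centriole amplification on the log2 scale, against -0.02 over all genes tested. The rule genes chose the members, and their differences, between -0.06 (Dnah5) and 0.68 (Dynlrb2), are a description. The calls with known roles are given first. Dpp6, a membrane protein gene that modulates potassium channels in neurons (chromosome 5), had 497 and 759 CPM in NOD and 57.1 and 34.0 CPM in BALB/c, a log2 difference of 3.66 ± 0.40 (SE, adjusted p = 0.00742 in edgeR). It was detected in 9 of 11 NOD members and 27 of 69 BALB/c members. Lrpprc, a mitochondrial RNA-binding protein gene, had 287 and 351 CPM in NOD and 24.2 and 28.3 CPM in BALB/c (log2 3.49 ± 0.37, adjusted p = 0.00742 in edgeR). Pglyrp1, a peptidoglycan-binding defence gene, had 1317 and 1434 CPM in NOD and 189 and 140 CPM in BALB/c (log2 2.96 ± 0.46, adjusted p = 0.0421 in edgeR). Groups did not overlap for these 3 genes, which adds no support with 2 mice against 2 and genes picked by their calls. All 3 calls were lost without NOD 1 or NOD 2.

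Of the other genes higher in NOD, Clic3 and Slit3 rose by 2.39 and 3.70 on the log2 scale and Cryzl2 by 5.43, and the pseudogenes Hist1h2al and Gm11942 were also called. Gm11942 had no UMI in BALB/c members, so its level in NOD (109 and 104 CPM) was at least 58.1-fold higher against a floor of 3 UMIs over the strain. H2-Ea, a class II gene, was lower in NOD, with 4.56 and 19.0 CPM against 324 and 501 CPM in BALB/c, and the same held in other epithelial barcodes (12.5 CPM in NOD and 972 CPM in BALB/c). Gm15772 and Tmem181c-ps were lower in the same way, seen in 0 and 1 of 11 NOD members against 61 and 69 of 69 BALB/c members. Igkc, Jchain and Iglc2 were lower too, and these rest on the 4 cells rich in Igkc: with members above 1% Igkc left out, Igkc had an adjusted p of 0.982 in edgeR, and 9 of the 15 calls still tested were made again. Among those lost, Pglyrp1 (log2 2.91, adjusted p 0.0520 in edgeR) and Clic3 (2.33, 0.0585) kept nearly the same difference. Among centriole-poor members alone, 17 of the 18 calls were made again and all 18 kept their sign, and 11 genes were higher and 19 lower in NOD. Leaving out either NOD mouse left 0 genes higher (1013 and 727 genes at an unadjusted p under 0.05 in edgeR) and 1 lower, and leaving out BALB/c 1 or BALB/c 2 left 5 and 14 or 4 and 12. Without B6 1 or B6 2, which share the fit, 19 and 18 or 15 and 16 were called.

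Contrasts with B6 had more calls. B6 members more often had at least 3 of the 4 centriole genes (10 of 15 members with at least 7 rule genes). That cut was chosen after the values were seen and moved with depth. None of the 11 centriole amplification genes was called against B6. Of 8839 genes tested, 188 were higher (2.13%) and 62 lower (0.701%) in NOD than in B6, and 183 were higher (2.07%) and 102 lower (1.15%) in BALB/c than in B6. With centriole-poor members only, where B6 is 5 cells of 1 mouse and is assumed to vary like the other strains, 0 and 0 genes were called for NOD against B6 (753 at an unadjusted p under 0.05 in edgeR). For BALB/c against B6 that fit called 4 and 5. Of the calls made in all members and tested there, 210 of 223 kept their sign for NOD and 187 of 211 for BALB/c. That set had fewer cells and fewer genes tested (6669). Some differences were nearly as large there. In BALB/c against B6, Tmem181c-ps, with 562 UMIs in BALB/c members and 1 in B6 members, was called there too (adjusted p 0.0394 in edgeR). H2-Ea differed by 4.58 on the log2 scale in centriole-poor members and 5.32 in all members (439 CPM in BALB/c against 20.4 CPM in B6 in centriole-poor members). In NOD against B6, Rpl29 differed by -3.27 in centriole-poor members and -3.73 in all members. Others were smaller there, and for those the part of centriole amplification and of strain cannot be told apart. In the 91 members with at least 7 rule genes and a mouse, the counts were 447 and 337 for NOD and 594 and 530 for BALB/c. Of the named genes tested there, 31 of 34 were called again in NOD and 35 of 35 in BALB/c; Mctp1, Gbp2 and Dmkn were not (adjusted p 0.109, 0.0835 and 0.0501 in edgeR). Every fit that left out 1 mouse called 4 of the 36 named genes in NOD and 22 of the 43 in BALB/c. Leaving out NOD 1 or NOD 2 left 25 and 3 or 10 and 1 calls for NOD against B6, and leaving out B6 2 left 87 and 51. For BALB/c against B6 the counts were 70 and 31 without BALB/c 1, 93 and 45 without BALB/c 2, 118 and 43 without NOD 1, 126 and 50 without NOD 2, 94 and 95 without B6 2 and 201 and 188 without B6 1. Without B6 1 the NOD contrast had 230 and 158.

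Several mucosal defence genes differed from B6. In NOD against B6, 4 of 10 tested were higher and 1 lower (2.13% and 0.701% of all genes tested), with a median log2 of 0.49 against -0.04 over all genes. In BALB/c against B6, 3 were higher and 1 lower (2.07% and 1.15% of all genes), with a median of 0.64 against -0.00 over all genes tested. Wfdc2 (chromosome 2, 164562413 to 164568510) had 3390 and 3285 CPM in NOD, 1771 and 1891 CPM in BALB/c, against 279 and 120 CPM in B6. Its log2 difference was 4.0 ± 0.50 in NOD against B6 (adjusted p = 0.00615 in edgeR) and 3.23 ± 0.48 in BALB/c against B6 (0.0101). Neither strain's mice overlapped those of B6, which adds no support with 2 mice against 2, and the call in NOD was lost without NOD 1 or NOD 2. In centriole-poor members it was 3421 CPM in NOD (9 of 10 cells), 2022 CPM in BALB/c (58 of 61), against 1437 CPM in B6 (5 of 5), and the log2 differences from B6 were 1.24 and 0.66 (adjusted p 0.366 and 0.590 in edgeR). In other epithelial barcodes Wfdc2 ran the other way, with 125 CPM in NOD, 92.5 CPM in BALB/c, against 781 CPM in B6.

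Lcn2 had 1244 and 209 CPM in NOD, 2039 and 1157 CPM in BALB/c, against 11.1 and 2.44 CPM in B6 (log2 6.60 ± 0.96 and 7.77 ± 0.98, adjusted p = 0.00915 and 0.00542 in edgeR). Centriole-poor members differed by 3.66 and 5.03 (adjusted p 0.305 and 0.193 in edgeR), and Lcn2 was seen in 3 of the 5 centriole-poor B6 members, at 61.2 CPM. Cxcl17, a mucosal chemokine gene, was also higher in both strains than in B6, by 4.53 ± 0.73 in NOD and 3.79 ± 0.71 in BALB/c. Its call in NOD was lost without NOD 1 or NOD 2. Its call in BALB/c was made in 3 of the 6 fits that left out a mouse and was lost without members rich in Igkc (adjusted p 0.0523 in edgeR). In centriole-poor members Cxcl17 differed from B6 by 1.47 in NOD and 0.99 in BALB/c. Pglyrp1 was higher in NOD by 3.83 ± 0.49 and differed by 0.87 ± 0.45 in BALB/c (adjusted p = 0.336 in edgeR). Tff3, a trefoil peptide gene, was the exception, at 18.2 and 9.49 CPM in NOD, 2.20 and 1.42 CPM in BALB/c, against 225 and 203 CPM in B6. It was seen in 6 B6 members, 1 of which held 46.1% of its UMIs, and did not pass the low-count filter in the members with at least 7 rule genes. There it was seen in 2 of the 10 B6 members with at least 3 of the 4 centriole genes (173 CPM) and in 0 of the 5 centriole-poor ones.

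Several interferon-stimulated genes were higher in BALB/c than in B6. Of 21 tested, 9 were higher and none lower (2.07% and 1.15% of all genes tested), among them Isg15, Ifit1, Ifit3, Iigp1 and Cxcl9. All 21 differences were above 0, with a median log2 of 1.92, against -0.00 over all genes tested. Isg15, a ubiquitin-like interferon response gene, had 614 and 815 CPM in BALB/c, against 111 and 58.6 CPM in B6 (log2 3.11 ± 0.53, adjusted p = 0.0169 in edgeR). Ifit1, an RNA-binding antiviral gene, had 290 and 290 CPM in BALB/c, against 55.7 and 51.3 CPM in B6 (log2 2.49 ± 0.34, adjusted p = 0.00872 in edgeR). Iigp1, an interferon-induced GTPase gene, had 264 and 239 CPM in BALB/c, against 31.6 and 26.9 CPM in B6 (log2 3.14 ± 0.40, adjusted p = 0.00542 in edgeR). In NOD against B6, Iigp1, Gbp2 and Cxcl9 of the 21 were higher and none was lower (median log2 0.85, against -0.04 over all genes, of which 2.13% were higher). Gbp2 was called in none of the 6 fits that left out a mouse, Cxcl9 in 3 and Iigp1 in 4. In other epithelial barcodes Iigp1 had 316 CPM in NOD, 187 CPM in BALB/c, against 30.3 CPM in B6, so both strains were above B6 there too. Centriole-poor members differed in Iigp1 by 0.49 in NOD and 0.85 in BALB/c relative to B6 (adjusted p 0.743 and 0.543 in edgeR).

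Some MHC class II and keratin genes were also higher outside B6. In NOD against B6, Ciita, the master activator of class II genes, H2-Aa and H2-Eb1 were higher of 10 tested (median log2 1.70; 2.13% of all genes were higher). In BALB/c against B6, H2-DMa, H2-Eb1 and H2-Ea were higher (median 1.48; 2.07% of all genes were higher). Except for H2-Ea, these calls depended on single mice. Of the 6 fits that left out a mouse, H2-Aa and H2-Eb1 in NOD and H2-DMa in BALB/c were called in 0, Ciita in 1 and H2-Eb1 in BALB/c in 2. Without members rich in Igkc the adjusted p was 0.0810 for H2-Aa, 0.0644 for H2-Eb1 and 0.0785 for Ciita in NOD, and 0.0681 for H2-DMa and 0.0571 for H2-Eb1 in BALB/c (edgeR). H2-Eb1, a class II beta chain gene, had 793 and 873 CPM in NOD, 828 and 854 CPM in BALB/c, against 227 and 281 CPM in B6. Its centriole-poor differences from B6 were 0.01 and 0.29 (adjusted p 1 and 0.820 in edgeR). No class I gene of 10 was called in any contrast (medians 0.32, 0.42 and -0.04 for NOD against B6, BALB/c against B6 and NOD against BALB/c). Krt14, a basal keratin gene, had 91.1 and 133 CPM in NOD, 287 and 224 CPM in BALB/c, against 20.4 and 22.0 CPM in B6, and was higher in both strains than in B6. Its centriole-poor differences were 0.12 in NOD and 1.66 in BALB/c (adjusted p 0.961 and 0.303 in edgeR), and the call in NOD was lost without NOD 1, NOD 2 or B6 2 and without members rich in Igkc (adjusted p 0.0690). Krt5, its partner, was higher too (log2 6.06 ± 1.0 in NOD and 5.15 ± 0.98 in BALB/c), and it was seen in 4 of 11 NOD members. Cldn4, a tight junction gene, was higher in BALB/c.

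Few ciliary genes passed the test between strains. The rule genes, given as a description because they chose the members, went both ways relative to B6. In NOD they lay between -0.55 (Rsph1) and 1.38 (Foxj1) on the log2 scale, and in BALB/c between -1.22 (Dynlrb2) and 1.19 (Dnah5). Of the 4 axonemal lists, Dnah9, an outer arm heavy chain gene, was higher in NOD than in B6, with 651 and 968 CPM against 253 and 198 CPM (log2 1.78 ± 0.36, adjusted p = 0.0303 in edgeR), a call made in 1 of the 6 fits that left out a mouse (without B6 1). Ropn1l, a radial spoke gene, was lower in BALB/c than in B6, with 34.1 and 56.6 CPM against 251 and 147 CPM (log2 -2.09 ± 0.48, adjusted p = 0.0491 in edgeR), and had the opposite sign in centriole-poor members (0.88, adjusted p 0.785 in edgeR). That call was made in 1 of the 6 fits as well (without B6 2). Ift22, of intraflagellar transport, was lower in BALB/c as well (log2 -1.85), a call made in 0 of the 6 fits that left out a mouse. Its adjusted p was 0.141 in edgeR without members rich in Igkc, and it differed by -0.35 in centriole-poor members. In NOD, Tppp3 (2.29 ± 0.43) and AU040972, Dydc2, Wdr49 and Fam216b of 26 other multiciliated cell genes were higher than in B6 (2.13% of all genes tested were), and only Fam216b of that list in BALB/c. The NOD calls were each lost without NOD 1 or NOD 2. The Fam216b call in BALB/c was made in 1 of the 6 fits, and its difference was 1.86 in all members and 0.16 in centriole-poor members. None of the 11 centriole amplification genes was called in a contrast with B6, where the median log2 was -1.19 for NOD and -1.23 for BALB/c.

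**Figure D5:**
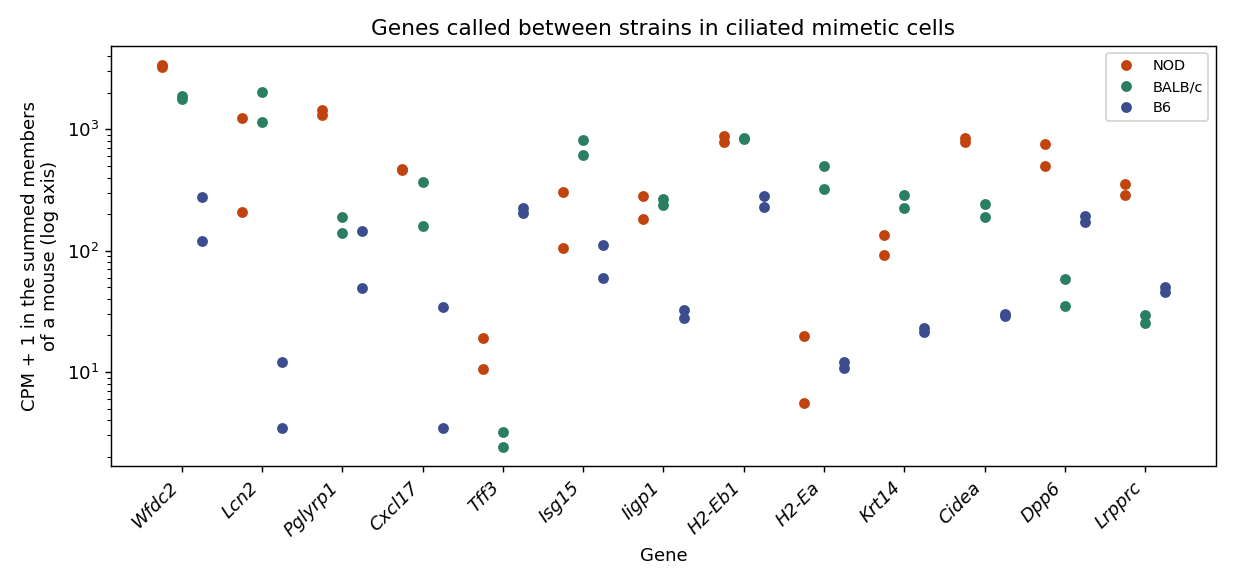
Level of 13 genes called in at least 1 strain contrast (x axis) in the summed members of each mouse (y axis, CPM + 1 on a log axis), 2 points per strain. Wfdc2 has 3285 to 3390 CPM in NOD and 120 to 279 CPM in B6, H2-Ea is high in BALB/c alone, and Dpp6 and Lrpprc are highest in NOD.

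Other genes with low p in these contrasts had other roles. Cidea, a lipid droplet protein gene, had 788 and 845 CPM in NOD, 243 and 187 CPM in BALB/c, against 27.9 and 29.3 CPM in B6 (log2 4.78 ± 0.38 in NOD against B6, adjusted p = 0.000884 in edgeR). C3, the central complement protein gene, had 747 and 807 CPM in NOD, 793 and 348 CPM in BALB/c, against 24.1 and 46.4 CPM in B6. Plb1, Gstm1, Clic3, Apobec2 and 2200002D01Rik were higher in NOD than in B6, and Nupr1 and Ppargc1a, a coactivator of mitochondrial genes, in BALB/c than in B6. In centriole-poor members every one of these differences was smaller, as were those of Cidea and C3 in NOD. Log2 values went from 2.90 to 0.59 for Gstm1, 3.63 to 1.44 for Ppargc1a and 4.78 to 2.65 for Cidea. The call was lost without NOD 1 or NOD 2 for Gstm1, without NOD 2 for Plb1 and C3 and without NOD 1 for 2200002D01Rik. Cidea, Clic3, Apobec2, Nupr1 and Ppargc1a kept theirs in every fit that left out a mouse. Hist1h2al and Gm10039 were higher in NOD as well, and Gm10039 also in BALB/c. Rpl29, a ribosomal protein gene with many near-identical copies whose counting is uncertain, was lower in NOD, at 45.6 and 28.5 CPM against 466 and 559 CPM in B6. Mctp1 was lower in NOD, with 18.2 and 0 CPM against 420 and 418 CPM in B6. It was seen in 6 B6 members, 1 of which held 42.3% of its UMIs, and the call was lost with at least 7 rule genes (log2 -3.80, adjusted p 0.109 in edgeR) and without NOD 2.

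Some genes lower outside B6 were borne by few B6 members. Iapp, the islet amyloid gene, had no UMI in NOD or BALB/c members and was seen in 8 B6 members (717 and 2257 CPM), which makes it at least 149.6-fold lower in NOD and at least 745-fold lower in BALB/c against a floor of 3 UMIs over the strain. Car8 and the neuroendocrine gene Stxbp5l were in 6 and 8 B6 members, and Resp18 in 9. The 6 B6 members with 100 or more neuroendocrine UMIs had 4 or 5 rule genes and at most 1 of the 4 centriole genes. Of the genes named, Resp18 was tested in members with at least 7 rule genes, while Iapp, Car8 and Stxbp5l did not pass the low-count filter there. Summed neuroendocrine-list levels in members were 0 and 0 CPM in NOD, 1.10 and 8.49 CPM in BALB/c, against 247 and 1901 CPM in B6. Ighv3-6, Igkv1-110 and Igkv1-117 were antibody segment genes and came from 2 or 3 B6 members each.

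Most marker lists of other cells were low, with exceptions. Cell cycle genes had 594 and 310 CPM in B6 members, against 119 and 128 CPM in other epithelial barcodes of B6. In each NOD and BALB/c mouse they were lower in members. Myeloid or dendritic genes had 472 CPM in members of B6 2, against 231 CPM outside, and were lower in members of every other mouse. Ionocyte and B or plasma genes had 71.7 and 2624 CPM over all members, against 47.3 and 1663 CPM in other epithelial barcodes. Tuft genes had 118 and 171 CPM in NOD, 374 and 1347 CPM in BALB/c, then 616 and 1351 CPM in B6 members, while the range was 1284 to 4658 CPM in other epithelial barcodes. Keratinocyte genes were between 242 and 845 CPM, against 1677 to 6179 CPM. Airway secretory genes were between 36.4 and 867 CPM (B6 2), against 402 to 1791 CPM. Of these, Cyp2f2 was higher and Lyz1 lower in BALB/c than in B6 (log2 3.73 and -6.01, adjusted p 0.0435 and 0.0232 in edgeR). The Lyz1 call was made in 2 of the 6 fits that left out a mouse, and Lyz1 was not tested in members with at least 7 rule genes. The Cyp2f2 call was lost without B6 2 or BALB/c 2 and without members rich in Igkc (adjusted p 0.0785 in edgeR). Cyp2f2 differed by 1.15 in centriole-poor members. Fibroblast genes were between 0 and 19.8 CPM, against 256 to 389 CPM, and endothelial genes between 0 and 8.49 CPM, against 5.66 to 8.86 CPM. The airway secretory markers Scgb3a1, Muc5b and Muc5ac, the fibroblast markers Col1a1, Col1a2 and Pdgfra and the endothelial markers Cdh5, Kdr, Cldn5 and Emcn were at 0 in members. The rest of these lists had UMIs in members: 7 of 10 airway secretory, 3 of 6 fibroblast or pericyte and 1 of 5 endothelial genes. Aire and Fezf2 stage genes had 96.6 to 246 CPM, against 514 to 851 CPM. Their part in the strain differences was not tested.

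Some strain contrasts in members differed from the same contrast in other epithelial barcodes of the same mice. In the interaction test of edgeR over 14628 genes with mouse as a block, 216 genes were more positive (1.48%) and 243 more negative (1.66%) in members for NOD against B6. For BALB/c against B6 they were 165 (1.13%) and 43 (0.294%), and for NOD against BALB/c 1 (0.00684%) and 0 (0%, with 1283 at an unadjusted p under 0.05). Dpp6 was that gene, with a difference of 3.36 on the log2 scale (adjusted p = 0.0390 in edgeR), at 51.0 and 48.2 CPM in other epithelial barcodes of NOD and BALB/c. Wfdc2 had differences of 6.65 in NOD and 6.53 in BALB/c against B6 (adjusted p 0.000427 and 0.000920 in edgeR). In centriole-poor members its strain differences from B6 were only 1.24 in NOD and 0.66 in BALB/c. Other epithelial barcodes of B6 also had a different make-up. Enterocyte-hepatocyte genes had 8730 and 8073 CPM there, against 135 to 406 CPM in NOD and BALB/c. Mucosal defence genes, which include Wfdc2, had 11191 and 8680 CPM, against 435 to 694 CPM. The part of this make-up was not tested. For H2-Ea, Tmem181c-ps and Gm15772 the interaction was not called in BALB/c against B6 (adjusted p 0.716, 0.819 and 0.236 in edgeR).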

How the data were processed

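Thymic cells of 6 mice were read in 1 droplet capture (10x Genomics 3' v3.1), with a gene expression library and a hashtag library. The authors deposited raw counts of UMIs per gene and barcode, made with Cell Ranger 7.0.0 on mm10 per the submitters' processing notes; the annotation release is not given in the sources used here. Coordinates are from a GENCODE annotation of mm10, which held 54435 of the 55487 gene IDs. Barcodes with at least 500 genes and under 15% mitochondrial UMIs were kept, and members had at least 4 of 10 rule genes. The members, gene lists and tests were chosen with earlier results of these data known. Mice were assigned by a hashtag with at least 80% of at least 100 hashtag UMIs. No doublet caller was run; barcodes without a dominant hashtag were left out of strain comparisons.

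Counts were summed per mouse (105335 to 910308 UMIs) and tested with edgeR 4.0.16 in R 4.3.3 (TMM, filterByExpr, quasi-likelihood, Benjamini-Hochberg), with 3 residual degrees of freedom; the smallest sum was that of 3 NOD members. Nothing states that mice differ in litter or day, and intervals cover counting error only. Shares were compared with exact permutation tests (scipy 1.17.1). The fits were also run on simulated data, and the outcome is not given here. Named genes were the 10 rule genes, up to 4 genes of highest mean CPM per list, up to 15 called genes of lowest p per contrast and the 20 of highest ratio; other called list genes were named after their values were seen. Alternatives were DESeq2 1.42.0, other size factors, no low-count filter, other rule and hashtag thresholds and leaving out each mouse. Those with at least 7 rule genes, without members rich in Igkc, with centriole-poor members only and with robust fitting were chosen after seeing the data.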

Additional observations from a re-analysis of the deposited data

Results flagged for a closer look

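These results were singled out because the strain difference in ciliated mimetic cells differed from that in the other epithelial barcodes of the same mice (edgeR interaction, adjusted p under 0.05), among the named genes. Values are that difference on the log2 scale. For BALB/c against B6 it was 4.10 for Nupr1 and 3.20 for Ppargc1a, with adjusted p of 0.00563 and 0.0220 in edgeR. It was -9.97 for Iapp, -5.94 for Car8 and -3.92 for Resp18, genes seen in 6 to 9 B6 members. For NOD against B6 it was 5.87 for 2200002D01Rik, 5.02 for Cidea, 4.80 for Clic3, 3.63 for C3, 3.47 for Gstm1 and 3.23 for Plb1. It was -2.43 for Rpl29, -10.21 for Igkv1-110 and -16.33 for Iglc2, and the antibody genes rest on few members. For NOD against BALB/c it was 3.36 for Dpp6. In the contrasts with B6, other epithelial barcodes of B6 had a different make-up, as given above, and its part was not tested. The strain differences from B6 of Nupr1, Ppargc1a, 2200002D01Rik, Cidea, Clic3, C3, Gstm1 and Plb1 were all smaller in centriole-poor members than in all members.

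Hashtags that no mouse of the pool carried were also counted. HT4 had 384 UMIs in members, HT9 had 70 and HT12 had 49, against 1809, 2778 and 2765 UMIs in the other passing barcodes.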

How the results depend on the processing

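The order of NOD and B6 shares was not stable. NOD minus B6 was -0.717 points as reported, 0.320 with at least 5 rule genes, 0.525 with a hashtag share of 90%, 0.940 with barcodes thinned to 1 depth and 1.17 with at least 7 rule genes. Leaving out a mouse gave -2.82 to 1.39 points for NOD minus B6, -0.238 to 4.19 for BALB/c minus B6 and -4.90 to -0.479 for NOD minus BALB/c. Counts are given as genes higher and lower. For NOD against BALB/c they were 90 and 130 with no low-count filter, 28 and 22 with DESeq2, 17 and 12 with at least 5 rule genes, 8 and 6 with at least 3, 17 and 14 with at least 7, 7 and 6 without Ptprc, 6 and 4 without members rich in Igkc and 11 and 19 in centriole-poor members. For NOD against B6, in the same order, they were 490 and 443, 271 and 109, 337 and 177, 154 and 35, 447 and 337, 123 and 43, 128 and 31, and 0 and 0. For BALB/c against B6 they were 629 and 511 with no filter, 412 and 328 with at least 5 rule genes, 55 and 20 with at least 3, 594 and 530 with at least 7, 242 and 161 with a hashtag share of 90%, 88 and 48 without members rich in Igkc and 4 and 5 in centriole-poor members. Leaving out a mouse gave 0 to 19 and 1 to 18 for NOD against BALB/c, 10 to 230 and 1 to 158 for NOD against B6, and 70 to 201 and 31 to 188 for BALB/c against B6. Differences from other epithelial barcodes, with no filter, at least 5 and at least 7 rule genes, were 63 and 107, 12 and 10, and 17 and 22 for NOD against BALB/c. They were 475 and 503, 364 and 430, and 543 and 570 for NOD against B6, and 491 and 276, 348 and 129, and 607 and 252 for BALB/c against B6. Leaving out a mouse gave 0 to 48 and 0 to 85, 29 to 407 and 7 to 495, and 108 to 280 and 19 to 143 for these contrasts. In centriole-poor members Ropn1l was 0.88 and Ifit3 -0.26 for BALB/c against B6, and Jchain was 0.079 and Iglc2 0 for NOD against B6, opposite to or without the sign in all members. With the replicate number as a block, BALB/c against B6 had 277 and 224; the numbers did not pair the mice (r = 0.0508 over 8839 genes). Of the single-gene values, 1318 kept their call, 372 lost it and 4 turned sign. The causes were not tested.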
